A study of Mus musculus with 6 samples.

Results

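The cytosolic sulfotransferases described here are 9 mouse genes, Sult1a1, Sult1b1, Sult1c2, Sult1d1, Sult1e1, Sult2b1, Sult3a1, Sult3a2 and Sult5a1, of the 19123 genes that could be tested. They were selected by gene symbol, with the knockout and wild type values of these arrays already known, so their differences, and whether each passed the threshold used for all genes, are given as a description and support nothing. Each of the 9 had 1 row in the deposited table and all 9 passed the filter on dim rows. A row is a transcript cluster, which sums up the probes of 1 transcript unit on an exon array. RNA came from primary hepatocytes of C57BL/6 mice aged 3 months, taken by liver perfusion and not treated. The 3 SRSF1HKO samples were from mice in which Srsf1 was deleted in hepatocytes, and the 3 WT samples were from wild type mice. SRSF1, an SR protein, helps to select splice sites in pre-mRNA. Neither the promoter that drove the deletion nor the hours of culture is stated in the labels. Nothing in the labels says that the samples of a group are different animals, although their titles carry different numbers. Sex chromosome genes (below) set SRSF1HKO replicate 1 apart from SRSF1HKO replicates 2 and 3, so it came from another animal. P-values reflect sample-to-sample spread, which among the other samples may be technical.

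Cytosolic sulfotransferases move a sulfonate group from the donor PAPS onto a hydroxyl or amino group of a small molecule. The product is charged and soluble, cannot bind the receptor of the parent hormone, and leaves the hepatocyte through export carriers. In liver the family acts on phenols, catecholamines, thyroid hormones, estrogens, hydroxysteroids and bile acids, as well as on many drugs, and several of its mouse genes differ in level between the sexes.

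Sult3a1, Sult3a2 and Sult5a1 carried the lowest knockout values relative to wild type, and the 250 bases before their RefSeq transcription starts are shown to give the sequence context of those starts (RefSeq, GRCm38.p6, each written in the direction of its gene). Capitals mark the matches to the motifs that were searched. Sult3a1 lies on the plus strand at chr10:33857472-33857721, Sult3a2 on the minus strand at chr10:33782116-33782365, and Sult5a1 on the minus strand at chr8:123158281-123158530.
Sult3a1: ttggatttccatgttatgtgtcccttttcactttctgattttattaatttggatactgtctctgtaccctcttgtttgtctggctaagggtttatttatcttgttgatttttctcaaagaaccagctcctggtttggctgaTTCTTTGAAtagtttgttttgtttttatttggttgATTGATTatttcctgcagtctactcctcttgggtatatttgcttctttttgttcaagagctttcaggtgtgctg
Sult3a2: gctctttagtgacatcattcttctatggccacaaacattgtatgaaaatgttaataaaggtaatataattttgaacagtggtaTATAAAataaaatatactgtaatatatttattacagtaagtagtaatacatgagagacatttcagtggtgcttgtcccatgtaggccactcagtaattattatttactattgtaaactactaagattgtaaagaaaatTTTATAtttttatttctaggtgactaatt
Sult5a1: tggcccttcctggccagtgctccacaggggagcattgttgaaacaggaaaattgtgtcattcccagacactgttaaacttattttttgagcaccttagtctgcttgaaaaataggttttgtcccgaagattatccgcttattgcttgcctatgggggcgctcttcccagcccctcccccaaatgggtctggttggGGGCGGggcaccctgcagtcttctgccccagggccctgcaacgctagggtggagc

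Both strands of each window were searched for 6 motifs. These were the nuclear receptor half-site AGGTCA, the STAT motif TTCNNNGAA, the FOXA motif TGTTTAC, the HNF6 motif ATTGATT, the Sp1 box GGGCGG and the TATA motif TATAAA. The Sult3a1 window held TTCTTTGAA, whose first base is at -109 from the start, and ATTGATT at -74. A STAT match was present in 7.02% and an HNF6 match in 2.61% of the 32851 windows of the same length. The Sult3a2 window held the TATA motif at -167 and, on the other strand, at -29, and 12.4% of windows held one. The Sult5a1 window held GGGCGG at -55, which 32.7% of windows held. None of the 6 motifs occurred in more than 1 of these 3 windows, and neither the half-site (14.0% of windows) nor the FOXA motif (3.17%) occurred in any of them. The Sult3a2 and Sult3a1 windows had 26.4% and 35.6% G and C, the Sult5a1 window had 54.4%, and the median window had 52.4%. A match is only a run of letters, and whether these starts were the ones used in the hepatocytes was not tested.

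The arrays differed in overall brightness, with medians of 18.6 to 28.8 in the SRSF1HKO arrays and 25.6 to 39.8 in the WT arrays. Values below are deposited intensities unless a sentence says otherwise. Differences are SRSF1HKO minus WT in log2(intensity + 16) after quantile normalization between arrays, with the standard error (SE), since the median gene was 0.44 lower on the deposited scale and 0.01 lower after this step. A gene was called changed where limma gave a Benjamini-Hochberg adjusted p under 0.05 on both scales in 1 direction. Adjusted p-values in the text are those after quantile normalization. By that rule 1.4% of the 19123 genes were called lower and 0.842% higher. SRSF1HKO replicate 1 stood apart from the other 5 arrays. Its Xist intensity was 9.95, against 2122 to 3532 elsewhere, and its Kdm5d intensity was 132, against 12.1 to 35.8, the pattern of a male among females. Sex and replicate 1 cannot be told apart. The differences of the 9 sulfotransferases are also given without that array, as are those of other genes where it changed a call. Without it, 5.29% of genes were called lower and 0.973% higher.

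Srsf1, the deleted gene, has 2 rows. The brighter one had intensities of 242, 371 and 386 in SRSF1HKO cells, against 666, 667 and 607 in WT cells. Its knockout values were below all wild type ones on both scales. Of all genes, 28% were so placed on the deposited scale and 10.1% after quantile normalization. The difference of -0.53 ± 0.18 was not called (adjusted p = 0.185), although it passed on the deposited scale (adjusted p = 0.010). The labels do not state which exons were deleted or which ones the probes of this row cover. Hepatocyte markers were bright on every array, and their summed quantile-normalized intensity was 118208 to 126689 in SRSF1HKO and 130652 to 133404 in WT arrays over 23 measured of 26 markers. Summed Kupffer cell and macrophage markers were 2217 to 2557 in SRSF1HKO and 1225 to 1748 in WT arrays (17 of 18 measured), and stellate cell and fibroblast markers 3951 to 5822 and 2796 to 3420 (16 of 16). Bile duct markers summed to 733 to 877 in SRSF1HKO and 668 to 702 in WT arrays (7 of 10). Proximal tubule and gut genes summed to 1462 to 1658 in SRSF1HKO and 1839 to 2032 in WT arrays (9 of 10). The sums of liver endothelial and of lymphocyte markers overlapped between the groups. No measured marker of any list was below the array median on all 6 arrays. The filter on dim rows made this likely in advance, as it passed 6 of 10 lymphocyte markers with a row. The outcome therefore says little about which other cells were present. What part these cells have in the values of the sulfotransferases was not tested. In such bulk RNA, fewer cells of a type and less RNA per cell cannot be told apart.

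Of the 9 sulfotransferases, 3 were called lower in SRSF1HKO cells, 0 higher and 6 neither. Of all genes, 1.4% were called lower and 0.842% higher. The same 3 were called without replicate 1, where 5.29% of all genes were called lower. These 3 were the Sult3a pair and Sult5a1. The knockout intensities were below all the wild type ones for 6 of the 9 on the deposited scale, where 28% of all genes were so placed, and for 3 of the 9 after quantile normalization, where 10.1% were. Knockout intensities were above all wild type ones after quantile normalization for Sult1a1, as for 11.6% of all genes. The median of the 9 differences was -0.46 with all arrays and -0.14 without SRSF1HKO replicate 1, beside -0.01 and -0.02 over all genes. The contrast was known when the genes were selected, so nothing further is read from these counts.

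**Figure D1:**
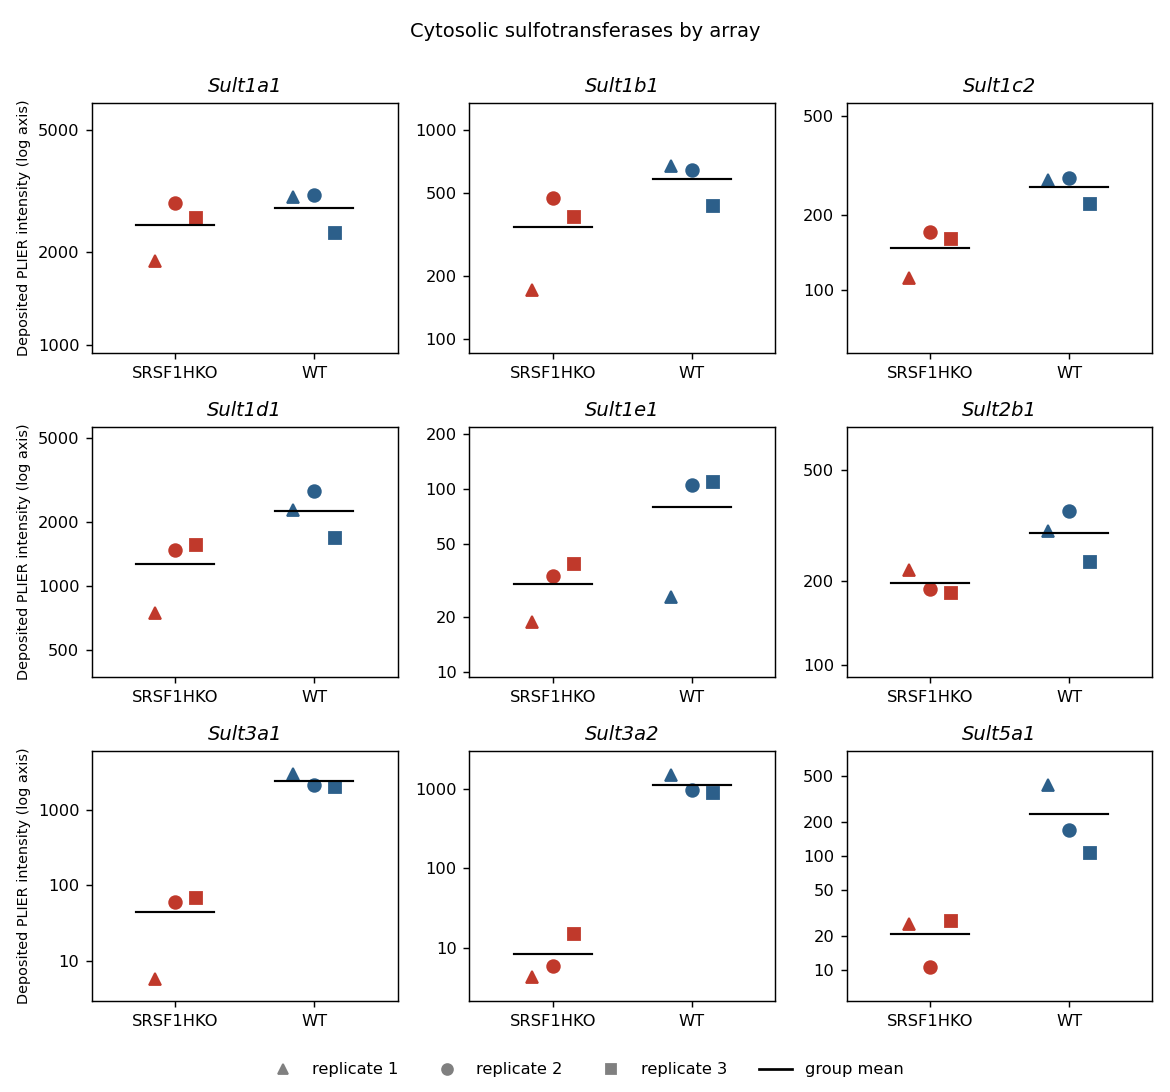
Deposited PLIER intensity (log axis, with its own range in each panel) of the 9 cytosolic sulfotransferases on each array, with SRSF1HKO left of WT; symbols are replicates and bars are group means. The groups lie far apart for Sult3a1, Sult3a2 and Sult5a1. SRSF1HKO replicate 1 is the lowest SRSF1HKO array for every gene shown except Sult2b1 and Sult5a1.

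Sult3a1, which in mice acts on amines and is known for far higher levels in female than in male liver, had intensities of 5.82, 59.6 and 67.0 in SRSF1HKO cells, against 3018, 2149 and 2024 in WT cells (row 6767066). The lowest WT array was far above the highest SRSF1HKO array. After quantile normalization the 3 SRSF1HKO arrays read 5.36, 82.8 and 86.0, against 2222, 1636 and 2020 in WT arrays. The difference was -5.03 ± 0.51 (SE) over all arrays and -4.40 ± 0.12 without SRSF1HKO replicate 1. The SRSF1HKO mean was 1.84% of the WT mean on the deposited scale. After quantile normalization it was 2.96%, and 4.31% for replicates 2 and 3 alone. SRSF1HKO replicate 1, the array with the male pattern, was 2.23 log2 units below the mean of the other SRSF1HKO arrays. What part sex has in the Sult3a1 values was not tested.

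Sult3a2, its neighbour on chromosome 10, had intensities of 4.24, 5.86 and 15.03 in SRSF1HKO cells, against 1514, 974 and 887 in WT cells (row 6773153). All 3 SRSF1HKO values lay below the median of their arrays, so the remaining level is near background. The SRSF1HKO mean was 0.745% of the WT mean, and 1.16% after quantile normalization, shares that such dim values leave imprecise. The difference was -5.16 ± 0.23 over all arrays and -5.07 ± 0.18 without SRSF1HKO replicate 1. For both genes of the pair the constant added before the logarithm changes this size. With 1 in place of 16 it was -5.77 for Sult3a1 and -6.54 for Sult3a2, and with 64 it was -4.12 for Sult3a1 and -3.71 for Sult3a2, so the order of the 2 genes turned. The 2 genes are close copies within 1 subfamily, and whether their probes can pick up each other's transcripts was not tested.

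Sult5a1 on chromosome 8 had intensities of 25.3, 10.6 and 26.7 in SRSF1HKO cells, against 420, 169 and 107 in WT cells (row 6985975). The groups did not overlap, and WT replicate 1 was far above the other WT arrays. The difference was -2.17 ± 0.35 over all arrays and -2.20 ± 0.37 without SRSF1HKO replicate 1. Leaving out WT replicate 1 brought it to -1.69, and a constant of 64 brought it to -1.39. The SRSF1HKO mean was 8.995% of the WT mean, and 13.3% after quantile normalization. On the deposited scale 2 of the 3 SRSF1HKO values lay below their array median. At this brightness a difference among the SRSF1HKO arrays could not be measured.

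Sult1a1, the main phenol sulfotransferase, had intensities of 1877, 2886 and 2594 in SRSF1HKO cells, against 3017, 3064 and 2310 in WT cells (row 6971280). On this scale the groups overlapped and the difference was -0.20. After quantile normalization the intensities were 2737, 3065 and 2873 in SRSF1HKO arrays, against 2217, 2412 and 2260 in WT arrays, and every SRSF1HKO array was higher. The difference was then 0.33 ± 0.08, and 0.37 ± 0.08 without replicate 1. With the arrays only scaled to 1 median the difference was 0.12, so its sign differed between the deposited values and both scalings. Sult1a1 was not called, although without replicate 1 it passed the threshold on the quantile-normalized scale alone, as did 9.74% of genes in the upward direction.

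The Sult1b1, Sult1d1 and Sult1e1 genes stand next to one another on chromosome 5. Sult1b1, which sulfates thyroid hormones, had intensities of 170, 473 and 381 in SRSF1HKO cells, against 673, 642 and 432 in WT cells (row 6939721). Sult1d1, which in mice acts on catecholamines, had 746, 1487 and 1567 in SRSF1HKO cells, against 2293, 2809 and 1682 in WT cells (row 6939723). In both genes SRSF1HKO replicate 1 was the lowest of the 6 arrays. The Sult1b1 difference was -0.46 ± 0.32 with that array and -0.02 ± 0.11 without it. The Sult1d1 difference was -0.36 ± 0.19 with it and -0.12 ± 0.11 without it. In the remaining SRSF1HKO arrays the quantile-normalized mean was 99.0% of the WT mean for Sult1b1 and 91.3% for Sult1d1.

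Sult1e1, the estrogen sulfotransferase, had intensities of 18.7, 33.5 and 39.1 in SRSF1HKO cells, against 25.9, 105 and 110 in WT cells (row 6939725). It was dim, and WT replicate 1 fell within the SRSF1HKO range. The difference was -0.54 ± 0.42 over all arrays and -0.23 ± 0.38 without SRSF1HKO replicate 1, neither far from its own error. Sult1c2 on chromosome 17 had 112, 172 and 160 in SRSF1HKO cells, against 277, 283 and 222 in WT cells (row 6856108). Its difference was -0.35 ± 0.22 over all arrays and -0.09 ± 0.11 without replicate 1. Sult2b1, which sulfates cholesterol and pregnenolone, had 219, 188 and 181 in SRSF1HKO cells, against 301, 356 and 234 in WT cells (row 6967006). Its groups overlapped after quantile normalization, and the difference was -0.09 ± 0.13, or -0.14 ± 0.10 without replicate 1. On the deposited scale alone 6 of the 9 genes passed the threshold in the lower direction, the added ones being Sult1b1, Sult1d1 and Sult1e1, and 6.86% of all genes did so. SRSF1HKO replicate 1 had the lowest quantile-normalized value of the 6 arrays for 6 of the 9 genes and lay below both other SRSF1HKO arrays for 7. The shares of all genes so placed were not computed, so nothing is read from these counts about the family.

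Of 13 further cytosolic sulfotransferases listed, 8 could be measured and 0 were called. Sult2a8, a mouse liver enzyme that sulfates bile acids, had intensities of 297, 1323 and 1688 in SRSF1HKO cells, against 3154, 3595 and 2852 in WT cells. The groups did not overlap, and SRSF1HKO replicate 1 was far below the other SRSF1HKO arrays. Over all 6 arrays the difference was -1.36 ± 0.49 (adjusted p = 0.196). Over the 5 arrays left without replicate 1 it was -0.66 ± 0.12 (adjusted p = 0.00427), which was called. Sult2a7 had 23.4, 47.8 and 36.9 in SRSF1HKO cells, against 162, 71.2 and 136 in WT cells, a difference of -0.97 ± 0.37 (adjusted p = 0.236), or -0.66 ± 0.31 without replicate 1. It was dim, and the groups overlapped after quantile normalization. The other 6 had differences of -0.25 ± 0.13 for Sult1c1, -0.18 ± 0.16 for Sult6b1, -0.17 ± 0.15 for Sult4a1, -0.13 ± 0.28 for Sult6b2, 0.07 ± 0.22 for Sult2a6 and 0.07 ± 0.32 for Sult2a2. Without replicate 1 the Sult2a2 difference was 0.50 ± 0.15 (adjusted p = 0.0514). Over the 17 measured genes the Sult3a pair and Sult5a1 were the ones called with all 6 arrays.

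**Figure D2:**
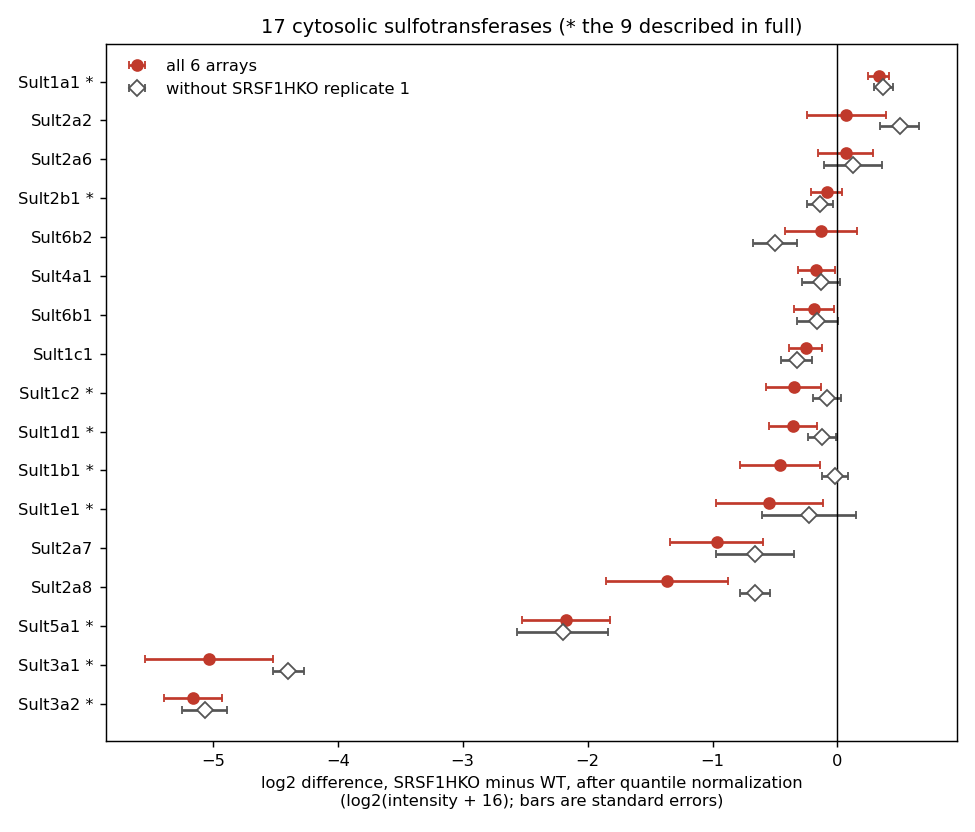
Differences of the 17 measured cytosolic sulfotransferases (log2, SRSF1HKO minus WT after quantile normalization) with standard errors, over all 6 arrays (red) and without SRSF1HKO replicate 1 (open); asterisks mark the 9 described in full. Sult3a1, Sult3a2 and Sult5a1 lie apart from the others, and leaving out replicate 1 brings Sult2a8, Sult1b1 and Sult1d1 nearer to 0.

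The supply of the sulfonate donor was measured through 10 genes, of which 1 rose and 0 fell, with a median difference of 0.03. The gene that rose was Slc13a5, with intensities of 173, 143 and 142 in SRSF1HKO cells, against 45.6, 59.5 and 46.4 in WT cells, a difference of 1.76 ± 0.13. Slc13a5 belongs to the family of sulfate carriers but is itself known as a citrate carrier. Papss1 and Papss2, which make PAPS, were not called, with differences of 0.75 ± 0.16 and -0.10 ± 0.15. Papss1 passed after quantile normalization (adjusted p = 0.0353) but not on the deposited scale (adjusted p = 0.332). Of 12 genes listed for the breakdown of sulfur amino acids, a route that ends in sulfate, 0 were called, and 1 was called lower without SRSF1HKO replicate 1. Of 12 sulfatases and their activating factors, which remove sulfate groups, 0 were called. Mat1a and Gnmt, the brightest of the first group, differed by -0.11 ± 0.08 and 0.15 ± 0.08, and Arsb and Sulf2 of the second group by 0.14 ± 0.11 and -0.33 ± 0.12. Of 31 Golgi sulfotransferases, which act on proteins and glycans, 0 rose and 1 fell. This was Tpst1, which sulfates protein tyrosines, with 220, 207 and 230 in SRSF1HKO cells, against 494, 547 and 391 in WT cells, a difference of -0.61 ± 0.12 (adjusted p = 0.0272). Of the 31, 2 were called lower and 0 higher without SRSF1HKO replicate 1, where 5.29% of all genes were called lower.

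Genes of other conjugation routes, some of which share substrates with sulfotransferases, were looked at as well. Of 7 measured glucuronosyltransferase and donor genes, 1 rose and 0 fell. With SRSF1HKO replicate 1 left out, 1 was called higher and 2 lower, beside 0.973% and 5.29% of all genes. Ugdh, which makes the glucuronate donor, had 2088, 2362 and 1873 in SRSF1HKO cells, against 1094, 1045 and 953 in WT cells, a difference of 1.53 ± 0.15 (adjusted p = 0.000809). Of 13 genes of methyl, acetyl and glycine conjugation, 0 were called, and the brightest, Gamt and Inmt, differed by 0.00 ± 0.08 and -0.44 ± 0.15. Inmt was called lower without SRSF1HKO replicate 1 (-0.23 ± 0.07). Of 15 carriers that move sulfated conjugates across the hepatocyte membrane, 1 rose and 1 fell. Abcc4, an exporter on the blood side, had 349, 288 and 171 in SRSF1HKO cells, against 41.0, 49.9 and 36.5 in WT cells, a difference of 2.68 ± 0.23 (adjusted p = 0.000552). Slco2b1, an uptake carrier for steroid sulfates, fell by 0.52 with an SE of 0.12 (adjusted p = 0.0446). Of the 15 carriers, 1 was called higher and 4 lower without SRSF1HKO replicate 1.

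The calls for Tpst1 and Slco2b1 were lost without SRSF1HKO replicate 2, SRSF1HKO replicate 3 or any 1 WT array, where their differences were -0.64 to -0.57 and -0.60 to -0.46 and their adjusted p-values reached 0.146 and 0.223. The Ugdh call was lost without SRSF1HKO replicate 2 (1.52) or WT replicate 2 (1.48), where it no longer passed on the deposited scale. With the median of its rows in place of the brightest, Slco2b1 was not called either (-0.33). Slc13a5 and Abcc4 stayed past the threshold whichever array was left out. Of 32 called genes named outside the family, all were also called without SRSF1HKO replicate 1. Without it the differences were 1.77 ± 0.13 for Slc13a5, 1.43 ± 0.12 for Ugdh and 2.49 ± 0.17 for Abcc4. Of the 32, 15 stayed called whichever array was left out, and 19 were also called with the arrays scaled to 1 median. The 15 include Ces1f, F7, Cyp2d13, Cyp27a1, Nxpe2 and Mcc. These genes were picked (below) for profiles on these same arrays like those of Sult3a1 and Sult3a2, so nothing is read from their staying called. Tpst1 and Slco2b1 were among those not called at that scaling.

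**Figure D3:**
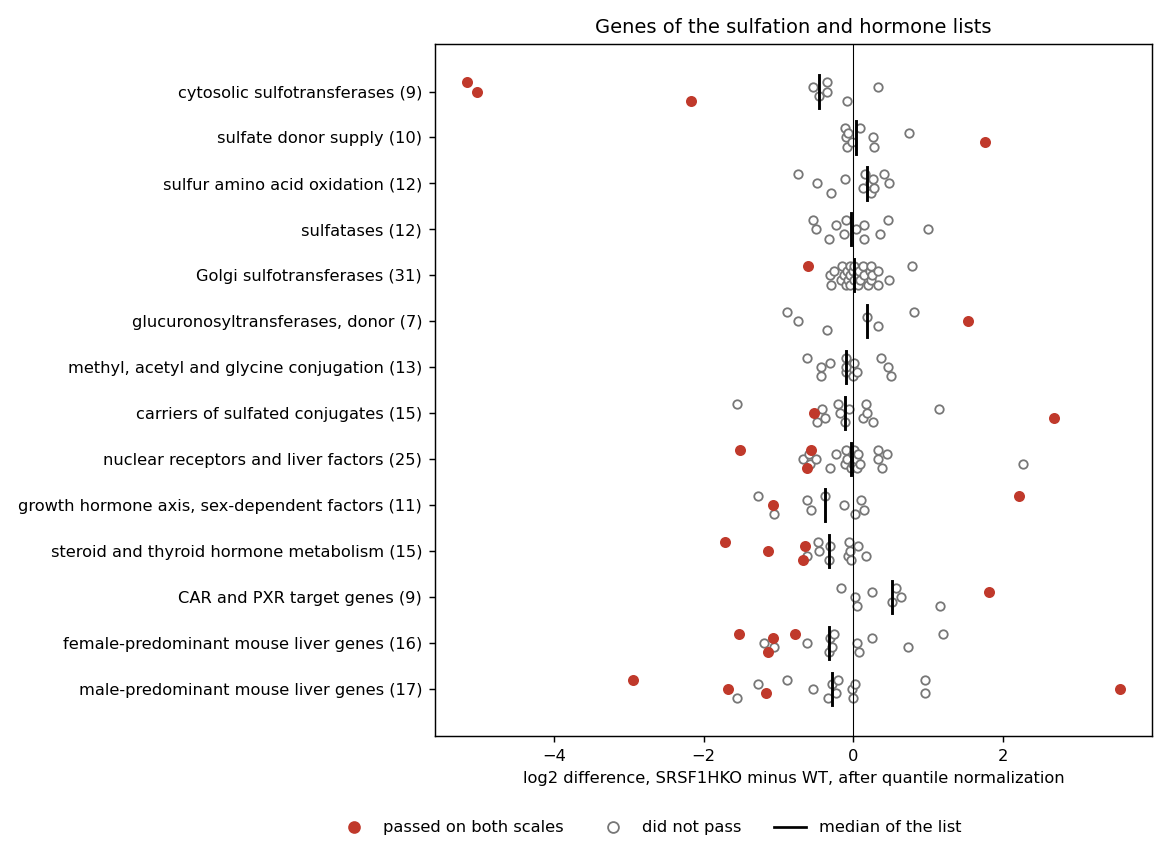
Differences (log2, SRSF1HKO minus WT after quantile normalization) of each measured gene of the 9 cytosolic sulfotransferases and of lists of related genes; filled points passed on both scales, open points did not, and the short lines are list medians. Among the lists other than the 9 sulfotransferases no median lies beyond 0.51 in either direction.

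Among 25 nuclear receptors and liver transcription factors known to act on sulfotransferase genes, 0 rose and 3 fell, and their median difference was -0.04. With SRSF1HKO replicate 1 left out, 1 was called higher and 7 lower, beside 0.973% and 5.29% of all genes. Nr1i3, the receptor CAR that senses drugs and bilirubin, had intensities of 217, 641 and 597 in SRSF1HKO cells, against 1900, 1599 and 1723 in WT cells. The groups did not overlap, and SRSF1HKO replicate 1 was the lowest array. Over all 6 arrays the difference was -1.52 ± 0.34 (adjusted p = 0.0421). Over the other 5 it was -1.06 ± 0.13 (adjusted p = 0.000269). Nr1i2, the receptor PXR for steroids and drugs, had 412, 518 and 411 in SRSF1HKO cells, against 1112, 1182 and 694 in WT cells, a difference of -0.63 ± 0.13 (adjusted p = 0.0318). Ppara, the fatty acid receptor, had 1520, 1896 and 1778 in SRSF1HKO cells, against 4062, 4105 and 3013 in WT cells, a difference of -0.57 ± 0.09 (adjusted p = 0.0072). Of 9 measured genes known as targets of CAR and PXR, 1 rose and 0 fell, and their median was 0.51. That gene was Cyp2c55, a cytochrome P450 of fatty acid and drug oxidation, with 274, 393 and 281 in SRSF1HKO cells, against 97.1, 132 and 103 in WT cells, a difference of 1.81 ± 0.16.

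Growth hormone, acting through STAT5, sets much of the difference between male and female mouse liver. Of 11 genes of that axis 1 rose and 1 fell, while 1 was called higher and 4 lower without SRSF1HKO replicate 1. Cish, an inhibitor of cytokine signalling that STAT5 induces, had 166, 450 and 695 in SRSF1HKO cells, against 144, 81.5 and 63.3 in WT cells. Every SRSF1HKO array was higher, and the difference was 2.22 ± 0.46 (adjusted p = 0.0291), or 2.88 ± 0.24 without replicate 1. Tox, a nuclear HMG-box protein, had 284, 562 and 519 in SRSF1HKO cells, against 1276, 1490 and 1134 in WT cells, a difference of -1.07 ± 0.21 (adjusted p = 0.0226). Of 16 genes known for higher levels in female mouse liver, 0 rose and 4 fell, and their median was -0.32. The 4 were Tox, Cyp17a1, Abcd2 and Acot3. Of 17 genes known for higher levels in male mouse liver, 1 rose and 3 fell, and their median was -0.28. C6, a complement protein, rose by 3.56 ± 0.38, while the fatty acid elongase Elovl3 (-2.95 ± 0.20), Susd4 (-1.17 ± 0.24) and the oxysterol hydroxylase Cyp7b1 (-1.67 ± 0.36) fell. Without the array of male pattern, 6 of the 16 female-predominant genes and 7 of the 17 male-predominant genes were called lower, with 0 and 1 higher. In that fit 5.29% of all genes were called lower and 0.973% higher, against 1.4% and 0.842% with all arrays.

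**Figure D4:**
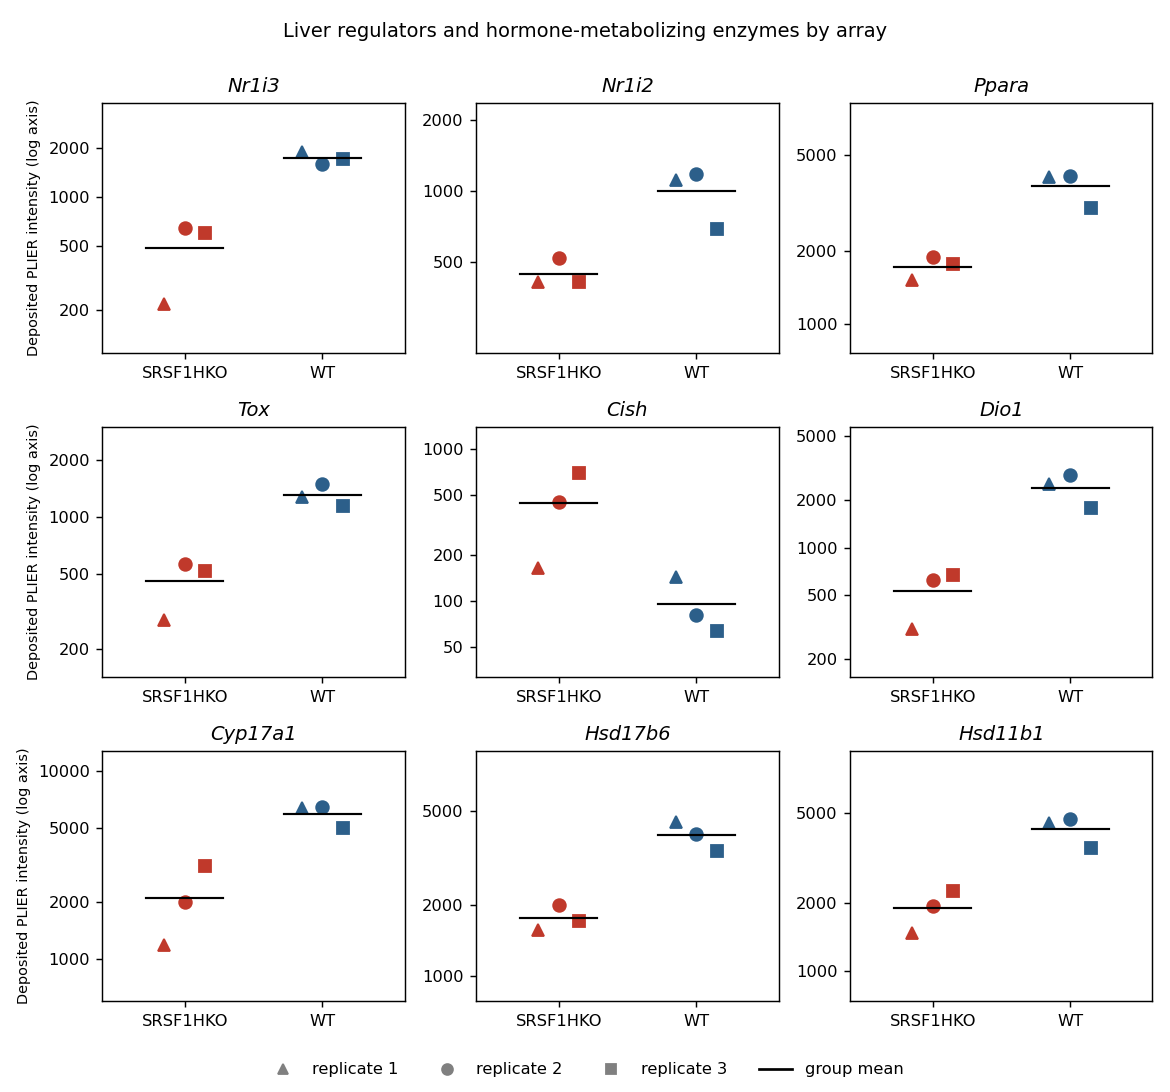
Deposited PLIER intensity (log axis, with its own range in each panel) of 9 called regulators and hormone-metabolizing enzymes on each array, with SRSF1HKO left of WT; symbols are replicates and bars are group means. Cish is higher on every SRSF1HKO array than on any WT array, and the other 8 genes are lower.

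Steroid and thyroid hormone enzymes share substrates with the sulfotransferases, and of 15 measured 0 rose and 4 fell. Of the 15, 8 were called lower and 0 higher without SRSF1HKO replicate 1, where 5.29% of all genes were called lower. Dio1, the deiodinase that removes iodine from thyroid hormones and acts well on their sulfates, had 306, 624 and 668 in SRSF1HKO cells, against 2522, 2868 and 1762 in WT cells. The difference was -1.71 ± 0.23 (adjusted p = 0.0042), and -1.44 ± 0.11 without replicate 1. Cyp17a1, which makes androgens, fell by 1.14 with an SE of 0.21 (adjusted p = 0.0197). Hsd11b1, which reactivates glucocorticoids, fell by 0.68 with an SE of 0.10 (adjusted p = 0.0072), and Hsd17b6, which oxidizes androgens, by 0.65 with an SE of 0.09 (adjusted p = 0.0041). Cyp17a1 and Tox each stand on more than 1 of these lists.

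Several of these calls were lost with 1 array fewer, while the differences kept their direction and much of their size. Nr1i2 and Cish were no longer called without SRSF1HKO replicate 2, SRSF1HKO replicate 3 or any 1 WT array, where their differences were -0.70 to -0.54 and 1.76 to 2.45. Nr1i3, Tox and Cyp7b1 were no longer called without any 1 WT array (-1.65 to -1.38, -1.15 to -1.01 and -1.78 to -1.46). Cyp17a1 was not called without SRSF1HKO replicate 2 (-1.07) or any 1 WT array (-1.19 to -1.10), and Susd4 without SRSF1HKO replicate 2 (-1.002), WT replicate 1 (-1.09) or WT replicate 2 (-0.98). Abcd2 and Acot3 were not called without SRSF1HKO replicate 3 (-0.82 and -1.62) or any 1 WT array (-0.81 to -0.70 and -1.57 to -1.47). Ppara was not called without WT replicate 2 (-0.53), where it failed on the deposited scale. Dio1, Hsd11b1, Hsd17b6, Cyp2c55, Elovl3 and C6 stayed past the threshold in each such fit. With the arrays scaled to 1 median, Nr1i2, Ppara, Tox, Cyp17a1, Abcd2, Hsd11b1 and Hsd17b6 were not called, and each kept its lower direction.

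The marker lists of other cells moved as follows. Of 17 macrophage markers 1 rose, the lysosomal protein Cd68 by 1.81 ± 0.35 (adjusted p = 0.0214), and it was not called without SRSF1HKO replicate 2 (1.90), WT replicate 2 (1.79) or WT replicate 3 (1.62). Of 23 hepatocyte markers 1 fell, the lectin Asgr2 by 0.59 with an SE of 0.10 (adjusted p = 0.0152), and it was not called without any 1 WT array (-0.63 to -0.56). Of 9 proximal tubule and gut genes 1 fell, Lgals4 by 1.52 with an SE of 0.22 (adjusted p = 0.0066), and 2 were called lower without SRSF1HKO replicate 1. None of 16 stellate cell, 13 endothelial, 7 bile duct or 6 lymphocyte markers was called by limma, while 3 stellate cell markers were called higher without SRSF1HKO replicate 1.

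The genes whose profile over the 6 arrays was most like that of each of the 3 low sulfotransferases were ranked by Pearson r among 1980 genes outside the family whose log2 values ranged over at least 1 unit. These values describe 6 arrays in which both genes of a pair share the same group difference, and they carry no p. The nearest to Sult3a1 were Ces1f, a carboxylesterase (r = 0.999), F7, coagulation factor VII (0.996), and Cyp2d13, a cytochrome P450 (0.995). Like Sult3a1, all 3 were lowest in SRSF1HKO replicate 1. Their own differences were smaller, at -1.07 ± 0.13 for Ces1f, -0.78 ± 0.11 for F7 and -1.75 ± 0.23 for Cyp2d13. The nearest to Sult3a2 were Cyp27a1, the sterol 27-hydroxylase of bile acid synthesis, with intensities of 1374, 1894 and 1991 in SRSF1HKO cells, against 5275, 4538 and 4168 in WT cells, then Nxpe2 (r = 0.995) and Mcc (0.994). Their differences were -0.94 ± 0.08, -1.74 ± 0.12 and -1.01 ± 0.14. The nearest to Sult5a1 were Pfkfb3, a regulator of glycolysis (r = 0.997), Ces4a (0.987) and Cux2, a female-predominant transcription factor (0.982), each highest in WT replicate 1. Pfkfb3 differed by -0.77 ± 0.18 (adjusted p = 0.0476) and was not called without SRSF1HKO replicate 2, SRSF1HKO replicate 3 or any 1 WT array (-0.86 to -0.58). Ces4a (-0.61 ± 0.16, adjusted p = 0.077) and Cux2 (-1.06 ± 0.25, adjusted p = 0.0511) were not called with all arrays, but were without SRSF1HKO replicate 1 (-0.64 ± 0.16 and -0.98 ± 0.25). Cux2 has 3 rows, and this profile is that of the brightest one. In the other rows the quantile-normalized SRSF1HKO mean was 181% and 111% of the WT mean, and with the median of the 3 rows the Cux2 difference was 0.08.

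**Figure D5:**
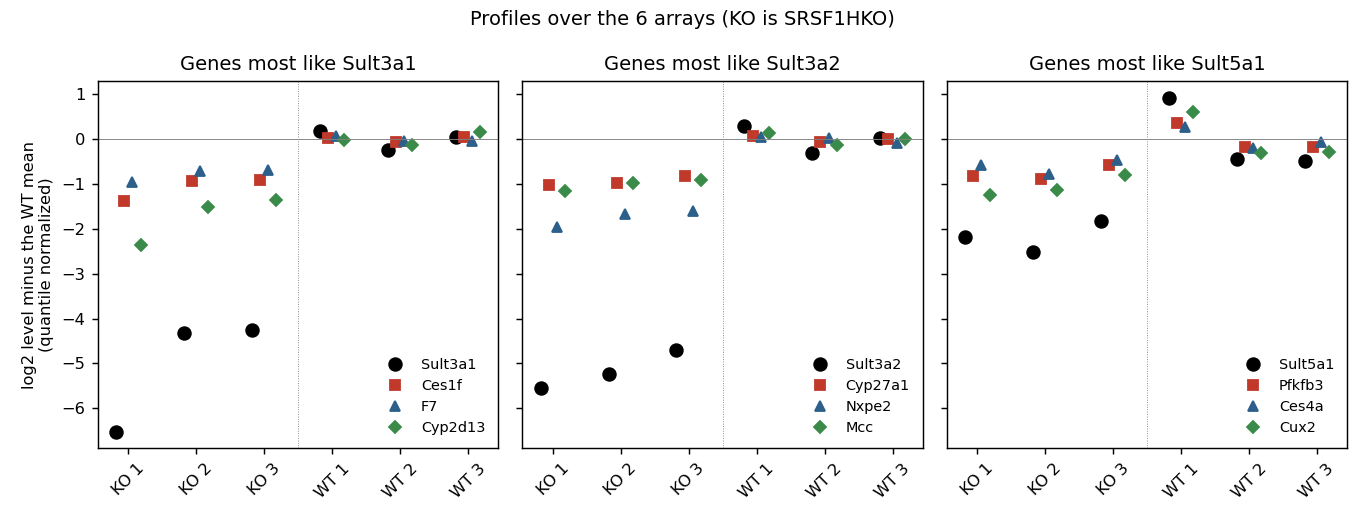
Log2 level after quantile normalization minus the WT mean of each gene, on each array, for Sult3a1, Sult3a2 and Sult5a1 (black) and the 3 genes most like each. The SRSF1HKO arrays lie below 0 for all of these genes, and on those arrays the sulfotransferase is the lowest in each panel.

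Among the 9 themselves the profiles split. Sult1b1 and Sult1c2 correlated at r = 0.969 over the 6 arrays, Sult3a1 and Sult3a2 at 0.976 and Sult3a2 and Sult5a1 at 0.932. Sult1a1 ran the other way, with r = -0.94 against Sult3a2 and -0.931 against Sult5a1. These coefficients share the group difference and the low value of SRSF1HKO replicate 1, and are a description only.

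The genes beside the family were looked at by their order in RefSeq, taking the 3 tested genes on each side of each sulfotransferase. Of 35 such neighbours outside the family 1 was called lower and 0 higher. For Sult3a1, Sult3a2 and Sult5a1 there were 12, with differences from -1.71 to 0.23. The called gene was Rsph4a, a radial spoke protein of cilia next to Sult3a1, at -1.71 ± 0.31 (adjusted p = 0.0174), and -1.35 without SRSF1HKO replicate 1. It was not called without WT replicate 1 (-1.499) or WT replicate 3 (-1.77). The next gene, Zup1, differed by 0.07 ± 0.20, and Clvs2 on the far side of Sult3a2 by 0.03 ± 0.15. Beside Sult1b1, Sult1d1 and Sult1e1 on chromosome 5 stand glucuronosyltransferase genes. Of these Ugt2b1 (-0.89 ± 0.24), Ugt2a3 (-0.73 ± 0.27) and Ugt2b35 (0.80 ± 0.13) were not called, although Ugt2b35 passed after quantile normalization (adjusted p = 0.00953). Without SRSF1HKO replicate 1, Ugt2b1 (-0.57 ± 0.11) and Ugt2a3 (-0.36 ± 0.08) were called lower.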

How the data were processed

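The authors deposited linear array intensities. PLIER made them and mm9 was the build, per the submitters' processing notes. How arrays were normalized to each other is not stated there. Of 238609 rows, 24343 carried 1 gene symbol in the platform annotation, 1797 several (named as no gene, which left out Sult2a1 and Sult2a5), and 212469 are unnamed here. Values were transformed as log2(intensity + 16), which understates differences of dim genes. A filter at the 40th percentile of row means (5.18 on the log2 scale) left 143165 rows, and the brightest row of each gene was used. This gave 19123 of 20261 genes.

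The 3 SRSF1HKO and 3 WT arrays were grouped by the genotype in the labels and compared using limma 3.58.1 (R 4.3.3), with its trend option and no covariates. The model was run once on the values as deposited and once with all rows quantile-normalized. The script was tested on simulated data. Alternatives were other pseudocounts, filters and scalings, the median row of a gene, robust variances, array weights, and leaving out each array. Settings applied to the comparison without SRSF1HKO replicate 1 were chosen after seeing the data. With 3 arrays a group, precision is low throughout.

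The sulfotransferases and all gene lists were chosen with earlier results of these data known. Genes named were all sulfotransferases; of each list the called genes, at most 4 by adjusted p, or the 2 brightest where none was called; and the 3 genes most like Sult3a1, Sult3a2 and Sult5a1. Papss1, Papss2, Onecut1 and the genes named as neighbours were chosen after their values were seen. RefSeq symbols, gene order and promoter windows are of GRCm38.p6, and all 9 genes had a window.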

Additional observations from a re-analysis of the deposited data

How the results depend on the processing

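As a description, since the contrast was known when they were chosen, Sult3a1, Sult3a2 and Sult5a1 were past the threshold in all 16 alternatives, with differences of -5.41 to -4.40, -5.40 to -4.95 and -2.42 to -1.69 when 1 array was left out. No difference of a named gene that was called changed direction. With all arrays 267 genes (1.4%) were lower and 161 (0.842%) higher. Of the 9 sulfotransferases 3 and 0 were, and of the 286 other listed genes that were measured, 17 and 7. On the deposited values alone 1311 genes, 6 sulfotransferases and 57 listed genes were lower, and the median of the 9 was -0.87. With quantile normalization alone 522 genes and 20 listed genes were higher. With arrays scaled to 1 median, 340 genes were higher, and 10 listed genes were lower and 16 higher. Array weights, whose estimation did not fully converge, gave 1316 genes lower and 545 higher, with 49 and 22 of the listed genes. Leaving out 1 array gave 84 to 1012 genes lower and 82 to 186 higher, and 5 to 40 listed genes lower and 4 to 11 higher. The highest count of lower genes came without SRSF1HKO replicate 1, and the lowest without WT replicate 1. The cause of these shifts was not tested. Without SRSF1HKO replicate 1, 1012 genes were lower and 186 higher. Of the settings then applied to those 5 arrays, the deposited values alone gave 3119 lower. Quantile normalization alone gave 1863 higher and 1 sulfotransferase higher, Sult1a1. Scaling to 1 median gave 1221 higher and array weights 510 higher. Robust variances then called 2 of the 9 sulfotransferases lower in place of 3. No paired analysis was possible because the labels give the groups no shared replicate numbers. Dim genes such as Sult1e1, Sult2a7 and, in SRSF1HKO cells, Sult3a2 and Sult5a1 lie near background, which limits the size of their differences.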

Other observations

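Onecut1, the liver factor HNF6 whose motif letters stand in the Sult3a1 window, was singled out after its values were seen. Such letters stand in 2.61% of all windows, and whether HNF6 acts on Sult3a1 was not tested. Its intensities were 217, 980 and 1605 in SRSF1HKO cells, against 217, 159 and 172 in WT cells. SRSF1HKO replicates 2 and 3 were well above every WT array, and replicate 1 lay among them on the deposited scale. The difference was 2.26 ± 0.58 (SE) with all arrays (limma, adjusted p = 0.0683), which was not called, and 3.15 ± 0.22 without SRSF1HKO replicate 1 (adjusted p = 7.63e-06), which was.

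Bcl6, a repressor of female-predominant genes in mouse liver, differed by -1.27 with all arrays (adjusted p = 0.227, not called) and by -1.91 ± 0.29 without SRSF1HKO replicate 1 (adjusted p = 0.00128, called). Slco1a1, an uptake carrier of steroid sulfates with higher levels in male mouse liver, differed by -1.55 with all arrays (adjusted p = 0.086, not called) and by -0.93 ± 0.10 without that array (adjusted p = 0.000111, called). Both were named after their values were seen.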
